A study of Mus musculus with 18 samples.

Results

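Mouse embryonic fibroblasts of clone C2 were compared 18 days after tamoxifen with the same clone given vehicle. The comparison uses 4 of the study's 18 Affymetrix expression arrays, 2 labelled TAM-treated day 18 and 2 labelled vehicle-treated, chosen by their titles alone, and it covers 18820 genes. Clone C2 was obtained by limiting dilution from fibroblasts of Ezh2 flox/Δ;ROSA26-CreERT2 embryos that had been immortalized with a c-Myc retrovirus (iMEFs). All groups therefore belong to 1 clone and carry c-Myc, a Cre recombinase that tamoxifen activates, and 1 Ezh2 allele that was already deleted before any treatment. Day 18 cells had received 4-hydroxytamoxifen, which deletes the remaining floxed allele, and vehicle cells ethanol. The time course has 2 further groups, day 5 and day 32 after tamoxifen, with 2 arrays each, which add to the estimate of spread and give the times on either side. A second experiment on clone C2, the rescue experiment, has 10 arrays, among them Ezh2 null cells, control cells labelled wild type for Ezh2, and Ezh2 pre-rescue cells, which carried retroviral Ezh2 when their own gene was deleted. Every tamoxifen-treated group of the time course also lost Ezh2, so within it the drug and the deletion cannot be told apart. The titles of the vehicle arrays give no day, and no vehicle group is labelled for day 18. Days in culture therefore cannot be told apart from the drug and the deletion either.

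Ezh2 is the main catalytic subunit of Polycomb repressive complex 2 (PRC2), which methylates lysine 27 of histone H3. The trimethylated form, H3K27me3, marks silent genes, many of them regulators of development whose promoters are rich in CG dinucleotides, and another complex, PRC1, acts at many of the same genes. In fibroblasts Polycomb complexes are known for holding back Hox genes of other body positions, regulators of other lineages, and the Cdkn2a locus, which encodes inhibitors of the cell cycle.

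Values are the deposited log2 intensities, with 1 probe set per gene, and the number of arrays limits their precision. Medians of the 8 time course arrays over all 28440 probe sets lay between 4.98 and 5.08, and replicates correlated across genes at 0.998 to 0.999. The median absolute difference between replicates was 0.081 for the day 18 pair and 0.106 for the vehicle pair. The targeted gene, Ezh2, read 9.80 and 9.63 on the day 18 arrays, against 9.37 and 9.43 on the vehicle arrays, so it was not lower at day 18. Where its probes lie relative to the deleted exons is not given in the sources used here. The probe set is thus no check on the deletion, and the labels are taken as given. Of 12 fibroblast markers, 11 lay above the median gene, among them vimentin (Vim), at 12.48 and 12.45 on the day 18 arrays, against 12.62 and 12.68 on the vehicle arrays. The surface marker Thy1 was the exception, at 4.03 and 4.23 on the day 18 arrays, against 4.18 and 4.11 on the vehicle arrays. All epithelial, endothelial and skeletal muscle markers (8, 7 and 7 genes) lay below the median gene in both groups. Clone C2 had cartilage genes as well, and Sox9, the regulator of chondrocytes, read 10.54 and 10.52 on the day 18 arrays, against 11.23 and 11.44 on the vehicle arrays. Sox2, a pluripotency and neural factor, was the 1 of 8 pluripotency markers above the median gene, at 9.07 and 8.96 on the day 18 arrays, against 9.45 and 9.57 on the vehicle arrays.

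The comparison asked which genes had changed 18 days after deletion was induced. At day 18, 396 genes were called higher, which is 2.10% of all genes tested, and 177 were called lower, which is 0.940% (limma with Benjamini-Hochberg adjustment, adjusted p under 0.05 and at least 2-fold). At any fold 2869 genes rose (15.2%) and 1969 fell (10.5%), and the median gene changed by −0.02. When each array was centred instead on its own median over the 18820 genes, and not over all probe sets, the median gene shifted to −0.18. The calls were then split into 284 higher and 242 lower, and 1813 genes rose and 6153 fell. Quantile normalization gave 344 higher and 195 lower calls, and 2494 genes rose and 2542 fell. Changes below are given as deposited, and where centring moved a list's counts they follow in brackets, as centred. Centred counts are to be read beside the 1813 that rose and 6153 that fell of all 18820 genes. Several lists lay near the shares of all genes, among them forkhead factors (13.2% rose and 7.89% fell) and the list of T-box, Sox, Gata and bHLH factors (14.1% and 10.9%), and for these the values describe single members and not the list. In these bulk samples fewer cells of a type and less RNA per cell cannot be told apart. Cdca5 lay just inside the fold limit on the higher side and Kif15 just outside it, and Timp4 and Epyc held the same places on the lower side.

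Higher and lower genes started from different levels. The 396 higher genes had a median of 6.77 at day 18, against 4.95 in vehicle cells, and 90 of them lay below the median gene at day 18, against 241 in vehicle cells. The 177 lower genes had a median of 6.72 at day 18, against 8.27 in vehicle cells, and 55 of them lay below the median gene at day 18, against 11 in vehicle cells. The median change was 1.33 among the higher and −1.36 among the lower genes. Of the higher genes 71 exceeded 4-fold, 20 exceeded 8-fold and 11 exceeded 16-fold, against 31, 6 and 2 of the lower genes.

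The 15 genes with the largest increase lay between 7.05 and 9.71 on the day 18 arrays, against 2.92 to 6.23 on the vehicle arrays. Rorb, an orphan nuclear receptor, read 8.96 and 8.85 on the day 18 arrays, against 2.92 and 3.17 on the vehicle arrays. The day 18 pair stood together and far above a vehicle pair near the bottom of the array's range, with a change of 5.86 ± 0.146 (SE, n = 2 arrays per group; adjusted p = 1.97e-08). Foxp2, a forkhead factor best known from brain and lung development, read 9.28 and 9.44 on the day 18 arrays, against 3.84 and 3.39 on the vehicle arrays. Plag1, a zinc finger factor of fetal growth, read 8.36 and 8.41 at day 18, against 3.58 and 3.32 in vehicle cells. Both genes were separated as clearly as Rorb, with changes of 5.75 ± 0.137 and 4.94 ± 0.0975 (adjusted p = 1.61e-08 and 7.64e-09). Rnf128, a ubiquitin ligase of endosomes, read 7.99 and 8.17 on the day 18 arrays, against 3.26 and 3.27 on the vehicle arrays. Itm2a, a membrane protein of developing cartilage and muscle, read 7.05 and 7.14 at day 18, against 3.07 and 3.35 in vehicle cells. Gpc3, a fetal glypican that binds growth factors at the cell surface, read 8.15 and 8.28 at day 18, against 4.23 and 3.98 in vehicle cells. Cpa6, a secreted carboxypeptidase, read 7.91 and 8.12 at day 18, against 3.37 and 3.26 in vehicle cells. In each of these genes the groups were apart by more than 3 log2 units. The lower quartile of all genes was 3.57 in vehicle cells, and no detection call was used, so a fold is not given for genes that started near the bottom of the range.

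**Figure D1:**
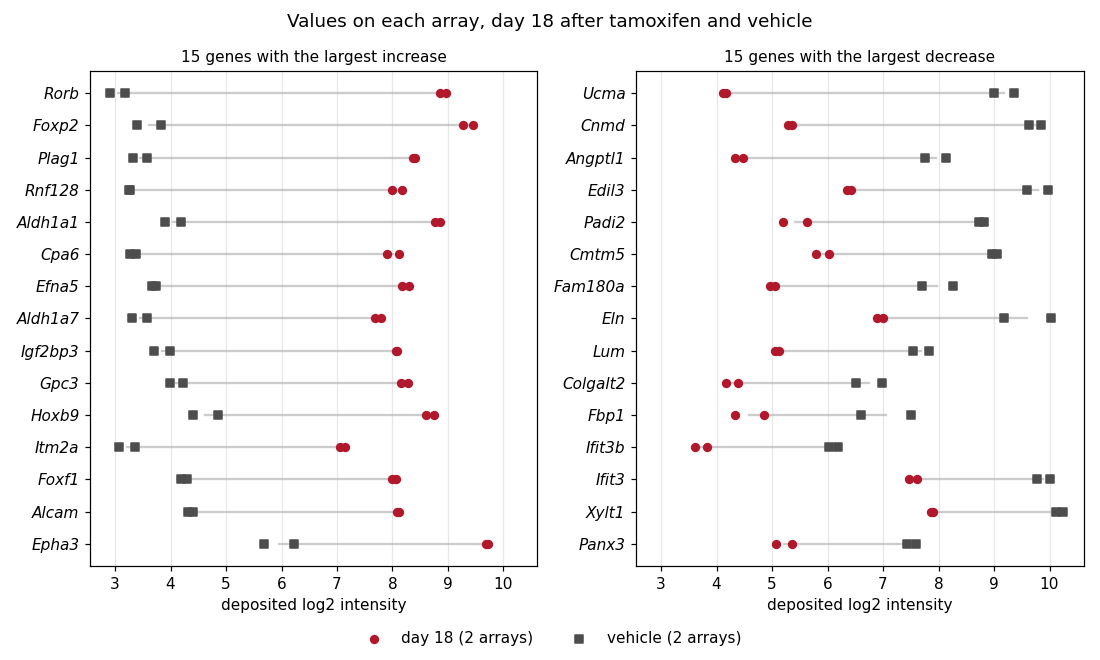
Deposited log2 intensity (horizontal axes) of the 15 genes with the largest increase and the 15 with the largest decrease at day 18, 1 row per gene. Red circles are the 2 day 18 arrays and dark squares the 2 vehicle arrays, and a grey line joins the group means. No gene's groups overlap, which held for 11621 of all 18820 genes, and these genes were picked by their change. The genes of the left panel lay between 7.05 and 9.71 on the day 18 arrays, against 2.92 to 6.23 on the vehicle arrays. Levels of different genes come from different probes and are not compared.

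Promoters of the higher genes held more CG dinucleotides than those of other genes that started low, as a description with no test. In the 250 bases before the start in the RefSeq promoter table (GRCm38.p6), which held 293 of the 396 genes, the median count of CG was 14, against 11 in all 14739 promoters matched, and the median ratio of observed to expected CG was 0.66, against 0.59. Low genes as a whole had few CG. Over the 7068 promoters of genes below the median gene in vehicle cells the median count was 4 and the ratio 0.28. The 168 higher genes that started below it had a median of 13 and a ratio of 0.62. Promoters of the lower genes had a median of 10 and a ratio of 0.48. The 150 bases before the start are printed for 3 of the 15 leading genes, 2 rich in CG and 1 poor, with each CG in capitals.
Rorb (chr19:19111197-19111346, minus strand, 18 CG in 250 bases): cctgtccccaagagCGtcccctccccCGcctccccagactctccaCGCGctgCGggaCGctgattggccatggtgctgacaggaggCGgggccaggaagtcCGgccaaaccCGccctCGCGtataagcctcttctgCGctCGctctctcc
Rnf128 (chrX:139610470-139610619, plus strand, 21 CG in 250 bases): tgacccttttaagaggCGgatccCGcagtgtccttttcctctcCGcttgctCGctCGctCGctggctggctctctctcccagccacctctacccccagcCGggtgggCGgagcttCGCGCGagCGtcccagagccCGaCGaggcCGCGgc
Aldh1a1 (chr19:20492433-20492582, plus strand, 3 CG in 250 bases): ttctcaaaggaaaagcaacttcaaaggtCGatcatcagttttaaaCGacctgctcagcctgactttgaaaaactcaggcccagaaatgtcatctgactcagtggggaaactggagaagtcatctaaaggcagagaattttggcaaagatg
The first 2 lines hold CG throughout and the last hardly any. Aldh1a1, an enzyme that makes retinoic acid, read 8.77 and 8.86 on the day 18 arrays, against 3.90 and 4.20 on the vehicle arrays, a change of 4.76 ± 0.105 (adjusted p = 1.3e-08).

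Among regulators of development, 5 of 9 HoxB genes rose and 0 fell, 4 of them by at least 2-fold, with a median change of 0.69, against −0.02 for all genes. Hoxb9, a gene of trunk identity, read 8.60 and 8.75 on the day 18 arrays, against 4.85 and 4.40 on the vehicle arrays. Hoxb13, normally confined to the hind end of the body, read 6.78 and 6.98 at day 18, against 4.01 and 3.76 in vehicle cells. Both lay low on each vehicle array and well above on each day 18 array, with changes of 4.05 ± 0.139 and 3.0 ± 0.141 (adjusted p = 1.6e-07 and 9.66e-07). Hoxb5 and its neighbour Hoxb6 rose by 2.41 ± 0.117 and 1.86 ± 0.192, and Hoxb3, already expressed in vehicle cells at 6.50 and 6.58, by 0.69 ± 0.0832. HoxC and HoxA were divided. In HoxC, 4 of 9 genes rose and 4 fell (3 and 4 centred), none by 2-fold. Hoxc9 rose by 0.66 ± 0.0882 and Hoxc13 by 0.71 ± 0.126, while Hoxc5 fell by 0.92 ± 0.0884 and Hoxc4 by 0.52 ± 0.0783. In HoxA, 1 of 10 genes rose and 2 fell (1 and 5 centred). The posterior gene Hoxa10 was the one that rose, at 6.61 and 6.70 at day 18, against 5.61 and 5.20 in vehicle cells. The anterior gene Hoxa3 was lower, at 5.39 and 5.45 at day 18, against 6.57 and 6.73 in vehicle cells. In HoxD, 4 of 8 rose and 0 fell, among them Hoxd10 at 1.23 ± 0.182 and Hoxd8 at 0.97 ± 0.1. Centred, 3 rose and 1 fell. The median was then −0.01 in place of 0.15, and for all genes −0.18 in place of −0.02.

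Outside the Hox clusters 23 of 96 homeobox and paired genes rose and 2 fell, 6 by at least 2-fold. With centred arrays 17 rose and 18 fell, when of all 18820 genes 1813 rose and 6153 fell. With quantile normalization 19 rose and 3 fell, when of all genes 2494 rose and 2542 fell. Vax2, a factor of the ventral eye, read 6.76 and 6.71 on the day 18 arrays, against 4.95 and 4.74 on the vehicle arrays. Msx1, a target of BMP signals in limb and face, read 6.20 and 6.35 at day 18, against 4.73 and 4.67 in vehicle cells. Dlx5, a factor of bone and branchial arches, read 5.83 and 6.23 at day 18, against 4.32 and 4.26 in vehicle cells. In these 3 genes both day 18 arrays lay at least 1 log2 unit above both vehicle arrays, with changes of 1.90 ± 0.103, 1.57 ± 0.088 and 1.74 ± 0.165. Prrx2, a limb mesenchyme gene, was already at 7.91 and 7.99 in vehicle cells and rose by 1.48 ± 0.0999. Pax6 and Pax3, regulators of eye and neural crest, rose by 1.15 ± 0.11 and 0.94 ± 0.0928, and no day 18 array of either exceeded 5.33. Among 38 forkhead genes 5 rose and 3 fell (4 and 17 centred, 4 and 8 with quantile normalization), and 4 of the risers passed 2-fold. After Foxp2 came the mesenchymal factor Foxf1, at 8.06 and 7.99 at day 18, against 4.29 and 4.18 in vehicle cells. Its relative Foxf2 rose by 1.42 ± 0.125, and Foxa1, a pioneer factor of endoderm, by 1.07 ± 0.0985.

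Of 92 T-box, Sox, Gata, AP-2, Ebf and bHLH genes 13 rose and 10 fell (9 and 25 centred). Tfap2b, an AP-2 factor of neural crest and kidney, read 6.76 and 6.38 on the day 18 arrays, against 3.64 and 3.35 on the vehicle arrays. Ebf2, a factor of brown fat and bone progenitors, read 7.13 and 7.21 at day 18, against 4.53 and 4.23 in vehicle cells. Gata3, a factor of T cells and several epithelia, read 6.56 and 6.68 at day 18, against 4.51 and 4.24 in vehicle cells. All 3 lay below the median gene on both vehicle arrays and above it on both day 18 arrays, with changes of 3.08 ± 0.202, 2.79 ± 0.106 and 2.25 ± 0.116. Sox6, which works with Sox9 in chondrocytes, was lower, at 7.56 and 7.59 at day 18, against 9.0 and 9.35 in vehicle cells, and Sox4, a factor of progenitor cells, fell by 0.92 ± 0.0745 (adjusted p = 1.37e-05 and 2.46e-05). Among 41 nuclear receptors 9 rose and 5 fell (6 and 16 centred). After Rorb came its relative Rora at 0.93 ± 0.0898 and the mineralocorticoid receptor Nr3c2 at 0.92 ± 0.103. The immediate early gene Nr4a1 was lower, at 8.20 and 8.07 at day 18, against 9.25 and 9.43 in vehicle cells, and so was the germ cell receptor Nr6a1, at 7.37 and 7.47 at day 18, against 8.46 and 8.50 in vehicle cells.

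Growth regulators that are usually fetal were divided. Of 18 oncofetal genes 6 rose and 5 fell, with a median of 0.14 (6 and 6, and −0.01, centred), and 4 of the risers passed 2-fold. Igf2bp3, which binds mRNAs in fetal and tumor cells, read 8.06 and 8.08 on the day 18 arrays, against 3.99 and 3.69 on the vehicle arrays. Its relative Igf2bp1 was already high in vehicle cells and read 9.32 and 9.29 at day 18, against 8.17 and 8.31 in vehicle cells. Plagl1, an imprinted relative of Plag1, read 9.45 and 9.37 at day 18, against 6.58 and 7.0 in vehicle cells. The 3 genes were higher at day 18 by 4.23 ± 0.118, 1.07 ± 0.0769 and 2.61 ± 0.126 (adjusted p = 4.21e-08, 1.16e-05 and 1.09e-06). In the IGF axis 5 of 22 genes rose and 4 fell (5 and 7 centred). The ligand Igf1 read 8.94 and 8.92 on the day 18 arrays, against 5.37 and 5.69 on the vehicle arrays. Igfbp5, which binds IGFs in the matrix, read 7.80 and 7.74 at day 18, against 5.37 and 5.29 in vehicle cells. The ligand and the binding protein were higher by 3.40 ± 0.115 and 2.44 ± 0.104. The receptor substrate Irs1 was lower, at 9.01 and 9.05 at day 18, against 10.31 and 10.47 in vehicle cells. Of 33 imprinted genes 4 rose and 9 fell (4 and 17 centred), and those that fell included Grb10, an inhibitor of insulin and IGF receptors, at 4.18 and 3.95 at day 18, against 4.99 and 5.29 in vehicle cells.

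Other ligands and receptors were divided. Of 38 EGF, PDGF, VEGF and HGF family genes 13 rose and 3 fell (10 and 8 centred), 5 by at least 2-fold. Met, the receptor of hepatocyte growth factor, read 6.26 and 6.46 on the day 18 arrays, against 4.15 and 4.48 on the vehicle arrays. Its ligand Hgf read 4.67 and 4.35 at day 18, against 3.26 and 3.14 in vehicle cells. Receptor and ligand both changed, by 2.05 ± 0.117 and 1.31 ± 0.115 (adjusted p = 2.88e-06 and 3.89e-05), although Hgf stayed below the median gene on every array. The neuregulins Nrg1 and Nrg2, ligands of ErbB receptors, rose by 1.65 ± 0.158 and 1.58 ± 0.107, and Pdgfc by 1.55 ± 0.0837. Of 35 FGF genes 6 rose and 6 fell (4 and 15 centred). Fgf10, the ligand of limb and lung buds, was higher, at 4.63 and 4.72 at day 18, against 3.08 and 3.37 in vehicle cells, while the receptor Fgfr1 and the pathway inhibitors Spry2 and Dusp6 fell by 0.61 ± 0.069, 0.73 ± 0.111 and 0.56 ± 0.0867.

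In the Wnt pathway 17 of 64 genes rose and 9 fell (11 and 19 centred), with the median at 0.05 and, centred, at −0.11. Secreted modulators moved in both directions. Rspo2, which enhances Wnt signals, read 9.22 and 9.36 on the day 18 arrays, against 6.90 and 6.57 on the vehicle arrays. Rspo3, of the same family, read 9.94 and 9.90 at day 18, against 8.68 and 8.79 in vehicle cells. The inhibitors were divided. Sfrp1 and Wif1 rose by 1.97 ± 0.0992 and 1.96 ± 0.141, and Frzb, a Wnt inhibitor of cartilage, was lower, at 5.45 and 5.79 at day 18, against 7.76 and 7.99 in vehicle cells, a change of −2.26 ± 0.147 (adjusted p = 6.49e-06). The receptor Fzd9 fell by 1.88 ± 0.108. Of 59 TGF beta and BMP genes 12 rose and 10 fell (10 and 18 centred). The receptors Bmpr1b and Tgfbr1 rose by 1.71 ± 0.138 and 1.10 ± 0.08 and the transducer Smad9 by 1.17 ± 0.0806, and the ligands Tgfb2 and Bmp6 fell by 0.97 ± 0.107 and 0.78 ± 0.0722. Of 33 Notch and Hedgehog genes 6 rose and 5 fell (4 and 7 centred). The Notch target Hey1 read 7.17 and 6.68 on the day 18 arrays, against 4.90 and 3.95 on the vehicle arrays, and its replicates lay apart in both groups (change 2.51 ± 0.26, adjusted p = 0.000103). The Hedgehog inhibitor Hhip rose by 1.82 ± 0.107, and Dner, a Notch ligand of neurons, fell by 1.92 ± 0.0808.

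Molecules of cell contact and axon guidance came next. Of 21 ephrins and Eph receptors 10 rose and 2 fell, with a median of 0.10 (8 and 4, and −0.06, centred), and 6 of the risers passed 2-fold. The ligand Efna5 read 8.16 and 8.29 on the day 18 arrays, against 3.67 and 3.74 on the vehicle arrays. Epha3, one of its receptors, read 9.68 and 9.71 at day 18, against 5.69 and 6.23 in vehicle cells. Another, Epha7, read 5.91 and 5.92 at day 18, against 3.83 and 3.49 in vehicle cells. The ligand and both receptors rose, by 4.52 ± 0.111, 3.74 ± 0.158 and 2.26 ± 0.2, although the vehicle arrays of Epha3 differed more than those of Efna5. Ephb3, a receptor of the B class, fell by 0.77 ± 0.0689. Of 22 Slit, Robo, netrin and Unc5 genes 10 rose and 1 fell, 5 of them by at least 2-fold, with a median of 0.27 (7 and 3, and 0.11, centred), among them the ligands Slit3 and Slit2 at 1.71 ± 0.0817 and 1.14 ± 0.0813 and the netrin receptors Unc5b and Unc5a at 1.71 ± 0.151 and 1.60 ± 0.0937. Of 31 semaphorin, plexin and neuropilin genes 11 rose and 4 fell, with a median of 0.05 (10 and 8, and −0.11, centred), and the ligands were divided. Sema3a read 7.62 and 7.86 at day 18, against 4.69 and 5.29 in vehicle cells. Sema3c read 7.64 and 7.61 at day 18, against 4.92 and 5.23 in vehicle cells. Sema3e went the other way, at 5.65 and 5.70 at day 18, against 6.87 and 7.10 in vehicle cells. Of 29 adhesion molecules of the immunoglobulin type 8 rose and 1 fell (6 and 9 centred, 7 and 1 with quantile normalization), and 6 of the risers passed 2-fold. Alcam, an adhesion molecule of developing axons and leukocytes, read 8.12 and 8.09 at day 18, against 4.40 and 4.31 in vehicle cells, and Nectin1 and Cadm1, which join cells at junctions and synapses, rose by 2.08 ± 0.147 and 1.52 ± 0.0763. Of 23 cadherins 2 rose and 2 fell (2 and 6 centred). The protocadherin Pcdh9 read 7.21 and 7.31 at day 18, against 4.07 and 4.12 in vehicle cells, a change of 3.17 ± 0.102 (adjusted p = 1.36e-07).

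Ion channels as a list lay near the share of all genes that rose. Of 64 voltage-gated channel genes 10 rose (15.6%, against 15.2% of all genes) and 3 fell, and 6 of the risers passed 2-fold. Centred, 9 rose and 22 fell, and with quantile normalization 9 rose and 2 fell. The sodium channel Scn3a read 7.32 and 7.25 on the day 18 arrays, against 5.18 and 5.58 on the vehicle arrays. The calcium channel Cacna1g read 7.44 and 7.41 at day 18, against 5.67 and 5.70 in vehicle cells. Its relative Cacna1c read 6.92 and 6.88 at day 18, against 5.35 and 5.31 in vehicle cells. Both calcium channels rose with replicates close together, by 1.74 ± 0.111 and 1.57 ± 0.0795 (adjusted p = 5.61e-06 and 1.39e-06). Of 47 receptors for glutamate, GABA, glycine and acetylcholine 1 rose and 2 fell (1 and 13 centred). The riser was the glycine receptor subunit Glrb, at 6.21 and 6.23 at day 18, against 4.29 and 4.29 in vehicle cells. Neuronal markers were measured beside these lists: 2 of 7 rose, the microtubule protein Map2 by 0.90 ± 0.0806 and the vesicle protein Syt1 by 0.47 ± 0.1, and their summed linear level was 226 to 237 on the day 18 arrays, against 155 on both vehicle arrays. The defining markers Rbfox3, Snap25, Dcx and Neurod1 lay between 2.80 and 3.49 on the day 18 arrays, against 2.82 to 3.52 on the vehicle arrays, below the median gene on each. The part of the markers in these lists was not tested.

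**Figure D2:**
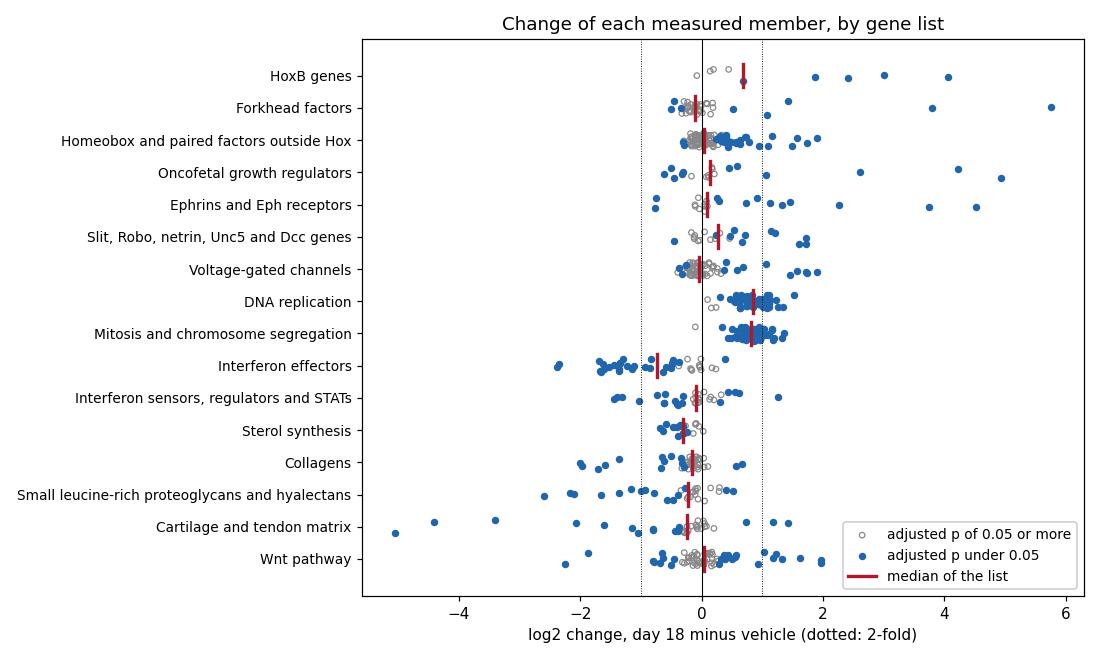
Log2 change at day 18 minus vehicle (horizontal axis, dotted lines at 2-fold) for every measured member of 16 gene lists, 1 row per list. Filled blue points are genes with an adjusted p under 0.05, open grey points the others, and the red bar is the list's median. DNA replication and mitosis genes lie nearly all right of 0 (medians 0.84 and 0.81), and interferon effectors mostly left of it (median −0.74). Sterol synthesis genes run from −0.68 to 0.03 (median −0.31) and HoxB genes from −0.08 to 4.05 (median 0.69). The other lists straddle 0, with a few members far out in most.

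Cell cycle genes moved nearly as whole lists, by small amounts. Of 52 DNA replication genes 49 rose and 0 fell, 16 by at least 2-fold, with a median change of 0.84 (48 and 0, and 0.68, centred), and of 69 mitosis genes 68 rose and 0 fell, 13 by at least 2-fold, with a median of 0.81 (67 and 1, and 0.65, centred). Over all genes 15.2% rose. Gins1, a subunit of the replicative helicase, read 8.34 and 8.35 on the day 18 arrays, against 6.75 and 6.90 on the vehicle arrays. Mcm10, which helps to start the helicase, read 9.04 and 9.07 at day 18, against 7.73 and 7.87 in vehicle cells. Mybl2, which switches on late cell cycle genes, read 8.49 and 8.39 at day 18, against 7.26 and 7.26 in vehicle cells. In each of these 3 genes both day 18 arrays lay more than 1 log2 unit above both vehicle arrays, and the changes were 1.52 ± 0.0852, 1.25 ± 0.0775 and 1.18 ± 0.0715. Kinetochore genes moved alike, Spc24 by 1.17 ± 0.0717 and Nuf2 by 1.01 ± 0.0798. Of 26 CDK, cyclin, E2F and retinoblastoma family genes 18 rose and 2 fell (16 and 6 centred). The kinase Cdk6 read 9.51 and 9.47 at day 18, against 7.68 and 7.50 in vehicle cells, and its partner cyclin Ccnd2 read 10.57 and 10.59 at day 18, against 9.35 and 9.35 in vehicle cells.

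The inhibitors of the cell cycle did not move together. Cdkn1a, the p53 target that encodes p21, read 6.16 and 6.12 on the day 18 arrays, against 5.04 and 5.17 on the vehicle arrays, and was higher by 1.03 ± 0.0747 (adjusted p = 1.19e-05). Cdkn2b, the neighbour of Cdkn2a, read 7.53 and 7.55 at day 18, against 8.31 and 8.37 in vehicle cells, and was lower by 0.80 ± 0.0713. Cdkn2a itself read 7.29 and 7.07 at day 18, against 7.36 and 7.31 in vehicle cells, and its change of −0.16 ± 0.0891 did not pass the test (adjusted p = 0.238). Quantile normalization gave −0.22, which did not pass it either (adjusted p = 0.139). With centred arrays the change was −0.31 and passed the test (adjusted p = 0.0299), but centring also moved the median gene from −0.02 to −0.18. No decrease of Cdkn2a is therefore claimed. Of 40 p53 genes 7 rose and 12 fell (6 and 19 centred). Trp53inp1 and Btg2, which restrain growth, fell by 1.72 ± 0.0682 and 1.40 ± 0.096, and Dram1, a regulator of autophagy, rose by 1.12 ± 0.0744. Of 55 genes of the Myc network and ribosome assembly 28 rose and 2 fell, none of the risers by 2-fold, with a median of 0.27, and centred 14 rose and 3 fell with a median of 0.11. Mxd4, which opposes Myc on DNA, read 8.79 and 8.81 at day 18, against 9.87 and 9.87 in vehicle cells, a change of −1.07 ± 0.0698 (adjusted p = 6.49e-06).

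In promoters the letters TTTGAA, the cell cycle homology region searched on both strands, stood in 35.6% of the mitosis genes' 59 promoters, against 13.7% of all promoters. The share was 9.09% in the replication genes' 44 promoters and 13.7% in those of the genes called higher. Lists in which more genes fell than rose also held these letters, at 30% for interferon effectors and 29.2% for small leucine-rich proteoglycans and hyalectans. CCAAT stood in 64.4% of the mitosis promoters and 56.8% of those of replication genes, against 35.7% of all. A match is a description and not a binding site.

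The 15 genes with the largest decrease lay between 3.62 and 7.91 on the day 18 arrays, against 6.02 to 10.25 on the vehicle arrays, and genes of cartilage and of the matrix were among them. Ucma, a matrix protein of the growth plate, read 4.16 and 4.11 on the day 18 arrays, against 9.0 and 9.37 on the vehicle arrays. Cnmd (chondromodulin), an inhibitor of vessel growth in cartilage and tendon, read 5.36 and 5.29 at day 18, against 9.62 and 9.84 in vehicle cells. Both were far above the median gene in vehicle cells and below it at day 18, and fell by 5.05 ± 0.141 and 4.41 ± 0.0863 (adjusted p = 4.21e-08 and 7.64e-09). Edil3, a matrix ligand of integrins, read 6.42 and 6.35 on the day 18 arrays, against 9.60 and 9.97 on the vehicle arrays. Its chromosomal neighbour Hapln1, which links aggrecan to hyaluronan, read 4.39 and 4.61 at day 18, against 6.35 and 6.98 in vehicle cells. Elastin (Eln), the stretching protein of matrix, read 7.0 and 6.90 at day 18, against 9.18 and 10.02 in vehicle cells. The vehicle arrays of Eln lay apart, and its change was −2.65 ± 0.223 (adjusted p = 3.04e-05). Panx3, a channel of chondrocytes and bone cells, read 5.07 and 5.36 at day 18, against 7.43 and 7.59 in vehicle cells. Xylt1, which starts the sugar chains of proteoglycans, read 7.87 and 7.91 at day 18, against 10.12 and 10.25 in vehicle cells. None of these genes had a day 18 array as high as either vehicle array. They were picked by their change, and in 11621 of all 18820 genes the 2 groups did not overlap. Further genes of the 15 have other roles. Angptl1, a secreted relative of angiopoietins, read 4.47 and 4.33 on the day 18 arrays, against 7.76 and 8.13 on the vehicle arrays. Padi2, which converts arginine in proteins to citrulline, read 5.20 and 5.62 at day 18, against 8.72 and 8.82 in vehicle cells, and Fbp1, an enzyme of glucose synthesis, read 4.85 and 4.33 at day 18, against 6.60 and 7.50 in vehicle cells.

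Lists of matrix genes fell in part. Of 33 cartilage and tendon genes 12 fell and 3 rose (22 and 3 centred), and 7 of those that fell and 2 of those that rose passed 2-fold. Papss2, which supplies sulfate for proteoglycans, read 4.26 and 4.22 on the day 18 arrays, against 6.06 and 6.56 on the vehicle arrays. Pth1r, the receptor of parathyroid hormone, was higher, at 8.46 and 8.44 at day 18, against 7.15 and 7.39 in vehicle cells. Of 30 small leucine-rich proteoglycans and hyalectans 13 fell and 2 rose (20 and 1 centred), 6 by at least 2-fold. Decorin (Dcn), which binds collagen fibrils and TGF beta, read 8.81 and 8.83 on the day 18 arrays, against 10.92 and 10.93 on the vehicle arrays. Its neighbour lumican (Lum), also a binder of fibrils, read 5.13 and 5.05 at day 18, against 7.54 and 7.84 in vehicle cells. Fibromodulin (Fmod), of the same family, read 8.04 and 8.19 at day 18, against 9.54 and 10.00 in vehicle cells. The replicates of Dcn nearly coincided, and its change was −2.11 ± 0.0692 (adjusted p = 1.38e-07). Of 42 collagens 12 fell and 2 rose (28 and 2 centred), and 5 of those that fell passed 2-fold, Col28a1 at −2.01 ± 0.174, Col11a1 at −1.97 ± 0.093, Col8a1 at −1.71 ± 0.155, Col2a1 at −1.58 ± 0.128 and Col9a1 at −1.35 ± 0.122. Col2a1, Col9a1 and Col11a1 are the fibril collagens of cartilage. The fibroblast collagen Col1a1 was higher, at 7.78 and 7.80 at day 18, against 7.29 and 7.17 in vehicle cells, but fibroblast markers were divided. Of 12 such markers 2 rose and 3 fell (2 and 4 centred). Those that fell included the collagen Col3a1 (−0.33 ± 0.0819) and fibronectin, Fn1 (−0.54 ± 0.0694). The summed linear level of the 12 was 16256 to 16497 on the day 18 arrays, against 18530 to 18956 on the vehicle arrays. Among 22 elastic fibre genes 5 rose and 6 fell (4 and 8 centred). Fbln5, which elastin needs for assembly, fell by 1.63 ± 0.0959, and its relative Fbln1 rose by 1.44 ± 0.0724.

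Cartilage markers moved with these lists. Of 8 markers 6 fell and 0 rose, 4 of them by at least 2-fold (Ucma, Cnmd, Col2a1 and Acan), and their summed linear level was 1646 to 1674 on the day 18 arrays, against 3957 to 4663 on the vehicle arrays. With centred arrays all 8 fell. Sox9 fell by 0.81 ± 0.083 and read 10.54 and 10.52 at day 18, against 11.23 and 11.44 in vehicle cells, while the matrilins Matn1 and Matn3 lay between 3.13 and 3.80 throughout. The decrease of Matn1 did not pass the test without vehicle replicate 2 (−0.30, adjusted p = 0.12) or without day 18 replicate 2 (−0.35, adjusted p = 0.143). Of 6 smooth muscle markers 1 rose and 2 fell (1 and 3 centred). Acta2, smooth muscle actin, was lower, at 11.61 and 11.65 at day 18, against 12.03 and 12.15 in vehicle cells. Des (desmin) was higher, at 5.36 and 5.27 at day 18, against 4.71 and 4.28 in vehicle cells. The part of these markers in the matrix lists was not tested.

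Most interferon effectors were lower at day 18. Of 40 interferon effectors 27 fell and 1 rose, 17 of the 27 by at least 2-fold, with a median change of −0.74 (31 and 0, and −0.89, centred), while over all genes 10.5% fell. Ifit3, an antiviral protein, read 7.60 and 7.46 on the day 18 arrays, against 10.00 and 9.78 on the vehicle arrays. Ifit3b, a near-identical neighbour that may share probe signal with it, read 3.82 and 3.62 at day 18, against 6.19 and 6.02 in vehicle cells, so the values of this pair are uncertain. Bst2, which tethers budding virus, read 6.46 and 6.54 at day 18, against 7.86 and 7.84 in vehicle cells. Isg15, a ubiquitin-like protein, read 4.32 and 4.04 at day 18, against 5.86 and 5.88 in vehicle cells. The day 18 arrays were below the vehicle arrays in each of these 4 genes by more than 1 log2 unit, with changes of −2.36 ± 0.177, −2.39 ± 0.133, −1.35 ± 0.0698 and −1.69 ± 0.111 (adjusted p = 1.52e-05, 2.49e-06, 1.55e-06 and 6.83e-06). Upstream, 13 of 33 sensors, regulators and STATs fell and 5 rose (16 and 4 centred). Stat2, which carries the signal of type I interferon, read 7.32 and 7.22 at day 18, against 8.65 and 8.52 in vehicle cells. Its partner Irf9 fell by 0.74 ± 0.0967, the amplifier Irf7 by 1.40 ± 0.114, and the RNA sensors Ddx58 (RIG-I) and Dhx58 by 1.02 ± 0.0707 and 1.44 ± 0.0893, whereas Irf5 rose by 1.26 ± 0.158. Of 9 interferon-induced GTPases 3 fell and 1 rose, as with centred arrays. Irgm1, which acts in the clearance of microbes, was lower, at 7.39 and 7.39 at day 18, against 8.64 and 8.55 in vehicle cells. Gbp2, of another GTPase family, was higher, at 6.51 and 6.57 at day 18, against 5.55 and 5.85 in vehicle cells.

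The core of the interferon response element (GAAA, any 2 bases, GAAA, on either strand) stood in the promoters of 12 of 30 effectors (40%) and 5 of 5 GTPases, against 2.94% of all promoters and 8.89% of those of the genes called lower. It stood in 7 of 17 promoters of effectors that fell (41.2%) and in 5 of 13 of those that did not (38.5%). Stretches of 4 such promoters are printed with the match in capitals, where overlapping matches run on.
Bst2 (chr8:71537543-71537622, minus strand): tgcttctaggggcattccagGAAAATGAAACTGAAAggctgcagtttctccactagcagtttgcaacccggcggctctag
Ifit3b (chr19:34607749-34607828, plus strand): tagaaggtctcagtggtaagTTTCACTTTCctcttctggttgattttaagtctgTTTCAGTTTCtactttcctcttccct
Irgm1 (chr11:48871421-48871470, minus strand): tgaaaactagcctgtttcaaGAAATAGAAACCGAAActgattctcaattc
Isg15 (chr4:156200837-156200916, minus strand): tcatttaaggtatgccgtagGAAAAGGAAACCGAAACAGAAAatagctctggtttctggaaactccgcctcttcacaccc

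Blood markers were measured beside these genes. Ptprc (CD45) and Spi1, which define blood cells, stayed between 2.91 and 3.67 on all 4 arrays, and Lyz2, a lysozyme of macrophages, was the 1 of 8 markers that rose (1 rose and 1 fell centred), at 6.72 and 6.37 at day 18, against 4.74 and 4.82 in vehicle cells. The summed linear level of the 8 markers was 203 to 230 on the day 18 arrays, against 144 to 147 on the vehicle arrays, and their part in the immune lists was not tested. Of 48 chemokines, cytokines and their receptors 10 rose and 7 fell (7 and 14 centred). Ccl5, which attracts T cells, read 7.33 and 7.20 at day 18, against 8.88 and 8.62 in vehicle cells. Cxcl9, a chemokine that interferon gamma induces, read 5.16 and 5.36 at day 18, against 6.48 and 6.50 in vehicle cells. These 2 were lower by 1.49 ± 0.0954 and 1.23 ± 0.0867. The receptor Il1r1, its antagonist Il1rn and the neutrophil chemokine Cxcl5 were higher, by 1.66 ± 0.0769, 1.86 ± 0.123 and 1.34 ± 0.113. Raet1e, a ligand of the receptor NKG2D of natural killer cells, read 6.19 and 6.06 at day 18, against 3.54 and 3.41 in vehicle cells. Its neighbour on chromosome 10, H60b, a ligand of the same receptor, read 6.53 and 6.51 at day 18, against 4.16 and 4.67 in vehicle cells. Both lay below the median gene on each vehicle array and above it on each day 18 array, with changes of 2.65 ± 0.119 and 2.11 ± 0.144 (adjusted p = 7.32e-07 and 8.35e-06). Of the 19 genes of their list, which holds those of antigen presentation by MHC class I, 4 rose and 5 fell (3 and 8 centred).

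Enzymes of lipid mediators and metabolism changed in smaller groups. The phospholipase Pla2g4a, which frees arachidonic acid, read 6.28 and 6.66 on the day 18 arrays, against 3.15 and 3.46 on the vehicle arrays. Its neighbour Ptgs2 (Cox-2), which makes prostaglandins from it, read 8.20 and 8.40 at day 18, against 6.29 and 6.42 in vehicle cells. Both rose beyond the spread, by 3.17 ± 0.138 and 1.94 ± 0.106, in a list of 23 in which 4 rose and 0 fell (3 and 3 centred). Of 20 sterol synthesis genes 12 fell and 0 rose, none by 2-fold (17 and 0 centred), with a median of −0.31. Insig1, a sensor of sterols, read 10.39 and 10.35 at day 18, against 11.08 and 10.95 in vehicle cells. The letters CCAAT stood in 93.8% of the list's 16 promoters, against 35.7% of all promoters. The core of the sterol regulatory element (TCAC, any base, CCAC, on either strand) stood in 1 of the 16 (6.25%), against 0.991% of all. In retinoid metabolism Aldh1a1 and Aldh1a7, neighbours whose likeness may let probes share signal, rose by 4.76 ± 0.105 and 4.30 ± 0.128. Dhrs3, which turns retinal back to retinol, was lower, at 6.63 and 6.42 at day 18, against 7.84 and 8.02 in vehicle cells. Of 38 glutathione and oxidative defence genes 13 rose and 5 fell, with a median of 0.11 (6 and 8, and −0.04, centred). The glutathione reductase Gsr read 9.43 and 9.55 at day 18, against 8.30 and 8.61 in vehicle cells, and Gclc, of glutathione synthesis, read 9.36 and 9.43 at day 18, against 8.78 and 8.69 in vehicle cells. In the integrated stress response 12 of 34 rose and 2 fell, with a median of 0.13 (9 and 6, and −0.02, centred). The serine enzymes Phgdh and Psph rose by 0.49 ± 0.0817 and 0.43 ± 0.0689, and the stress factor Atf3 fell by 0.87 ± 0.0825.

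Of 13 PRC2 genes 5 rose and 2 fell (2 and 5 centred), and of 19 PRC1 genes 6 rose and 2 fell (4 and 5 centred), with medians of 0.22 and 0.16 (0.07 and 0 centred). Only Phf19 passed 2-fold. Phf19, an accessory subunit that brings PRC2 to chromatin, read 7.02 and 7.05 on the day 18 arrays, against 5.16 and 5.30 on the vehicle arrays, a change of 1.81 ± 0.0847 (adjusted p = 9.49e-07). Suz12, a core subunit, rose by 0.46 ± 0.0797. Ezh1, the second methyltransferase, read 8.51 and 8.44 at day 18, against 9.17 and 9.05 in vehicle cells, and fell by 0.63 ± 0.0767 (adjusted p = 0.000277). Ezh2 was higher by 0.32 ± 0.0838 (adjusted p = 0.02), a call that was lost with centred arrays (0.16, adjusted p = 0.148), without vehicle replicate 1 (0.29, adjusted p = 0.0906) and without day 18 replicate 1 (0.24, adjusted p = 0.143). In PRC1, Cbx2, which reads the mark, and Bmi1 rose by 0.86 ± 0.0814 and 0.79 ± 0.0803, and the ubiquitin ligase Rnf2 fell by 0.59 ± 0.0709. Of 15 genes of H3K27 demethylation and DNA methylation 3 rose and 3 fell (3 and 5 centred), with a median of −0.06. The maintenance enzyme Dnmt1 rose by 0.67 ± 0.0743, its partner Uhrf1 by 0.92 ± 0.0689 and Dnmt3b, which methylates new sites, by 0.91 ± 0.105. Tet1, which oxidizes methylated cytosine, and Kdm6b and Uty, of the H3K27 demethylase family, were lower, at −0.26 ± 0.07, −0.36 ± 0.0869 and −0.38 ± 0.0738. The call of Tet1 was lost with only the vehicle and day 18 arrays (−0.26, limma adjusted p = 0.061). That of Kdm6b was lost with the mean of probe sets (−0.22, limma adjusted p = 0.076). Tet1 also lost its call without vehicle replicate 2 (−0.22) and without day 18 replicate 1 (−0.25) or 2 (−0.27). Kdm6b also lost it without vehicle replicate 2 (−0.30) and without day 18 replicate 2 (−0.28).

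The place of day 18 in the time course differed between these groups. All comparisons with vehicle share the vehicle arrays, and those with day 18 share the day 18 arrays, so each is given by its own values. At day 5, 182 genes were called higher (0.967%) and 35 lower (0.186%) against vehicle, and at day 32, 484 (2.57%) and 312 (1.66%). Day 18 against day 5 gave 493 genes higher (2.62%) and 384 lower (2.04%), and day 32 against day 18 gave 14 higher (0.0744%) and 30 lower (0.159%). The 15 leading higher genes stood between −0.57 and 0.71 of vehicle at day 5. Rorb was at 0.31, 5.86 and 5.85 at days 5, 18 and 32, and Foxp2 at 0.21, 5.75 and 6.12. Between day 18 and day 32, 4 of the 15 fell and 1 rose, against 2.75% and 1.40% of all genes. The 15 were picked as highest on these same day 18 arrays, which favours later falls, so nothing is concluded from that count. Gpc3 fell by 1.77 (adjusted p = 5.4e-05), Itm2a fell by 0.88, Aldh1a7 fell by 0.81 and Aldh1a1 fell by 0.72. Efna5 rose by 0.59 (adjusted p = 0.0213). Of the matrix genes, Ucma was at −0.04, −5.05 and −5.56, and between day 18 and day 32 Lum fell by 0.98 (adjusted p = 0.00342).

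Interferon genes were on opposite sides of vehicle at day 5 and day 18. The median of the effectors was 0.65 at day 5, −0.74 at day 18 and −0.89 at day 32, and 29 of 40 rose and 1 fell at day 5, when 11.0% of all genes rose and 5.72% fell. In the direct test of day 18 against day 5, 32 fell and 1 rose, against 16.1% and 15.6% of all genes. Usp18, which shuts off interferon receptors, was at 1.39, −1.66 and −2.16, and the difference between day 18 and day 5 was −3.05 (adjusted p = 3.53e-08). Between day 18 and day 32 Ifit3 fell by 1.89 (adjusted p = 0.000718). Of the 20 sterol genes 19 fell at day 5, and in the test of day 18 against day 5, 15 rose and 0 fell. Between day 18 and day 32, 12 fell and 0 rose, against 2.75% and 1.40% of all genes. The sterol median was −0.67, −0.31 and −0.69 at days 5, 18 and 32. Of the 69 mitosis genes 42 fell and 1 rose at day 5, and their median was −0.38, 0.81 and 0.92 at the 3 times. Igf1 was already high at day 5, at 2.47, 3.40 and 2.23, and so was Slit3, at 1.82, 1.71 and 1.19. Il13ra1, a receptor chain for interleukins, was below vehicle at day 5 and above it later, at −1.12, 0.63 and 0.68.

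**Figure D3:**
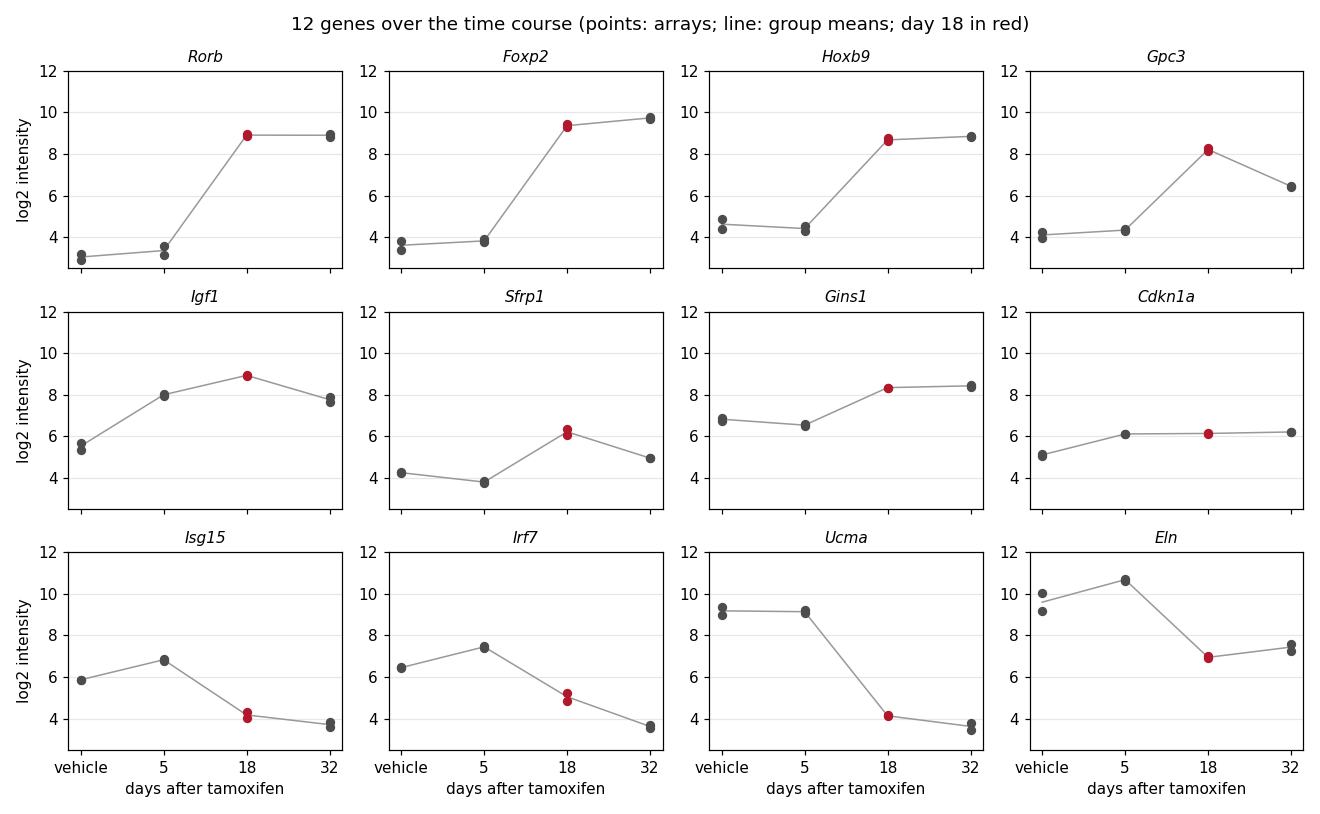
Deposited log2 intensity (vertical axes) of 12 genes in vehicle cells and at 5, 18 and 32 days after tamoxifen, with the times evenly spaced. Points are the 2 arrays of each group, lines join the group means, and day 18 is in red. Rorb, Foxp2, Hoxb9 and Gpc3 stay near vehicle at day 5 and are high at day 18, Igf1 is already above vehicle at day 5, and Isg15 and Irf7 are above vehicle at day 5 and below it at day 18.

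The same deletion was measured on other arrays in the rescue experiment, where Ezh2 null cells are set against control cells and no array is shared with the time course. The levels of the 2 experiments were normalized separately, so only changes are compared. In Ezh2 null cells 118 genes were called higher (0.627%) and 40 lower (0.213%). These counts moved with single arrays: they were 193 and 117 without Ezh2 null replicate 1, and the lower count was 24 without Ezh2 null replicate 2 and 94 without control replicate 1. Of the day 18 calls, 96 higher genes were called higher there too, which is 24.2% of the 396 and 81.4% of the 118, and 35 lower genes were called lower, which is 19.8% of the 177 and 87.5% of the 40. At any fold, 136 of the 396 rose and 0 fell in null cells (1.20% of all genes rose), and 50 of the 177 fell and 0 rose (0.755% of all genes fell). The median change from control cells was 0.72 for the higher and −0.60 for the lower genes in null cells, 0.02 and 0.17 in Ezh2 pre-rescue cells and 0.18 and −0.24 in Ezh2 post-rescue cells, in which Ezh2 was put back after deletion. Of the 15 leading higher genes 11 rose in null cells, where all 15 lay between 1.72 and 4.70, and in pre-rescue cells they lay between −0.41 and 0.65. Rorb read 8.94 and 9.06 on the null arrays, against 4.76 and 4.42 on the control arrays. Foxp2 rose by 4.70 (adjusted p = 0.0169), Rorb by 4.41 (adjusted p = 0.00216) and Plag1 by 4.33 (adjusted p = 0.00113). The values of Aldh1a1 and Gpc3, 2.71 and 2.85, did not pass the test (adjusted p = 0.291 and 0.182).

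**Figure D4:**
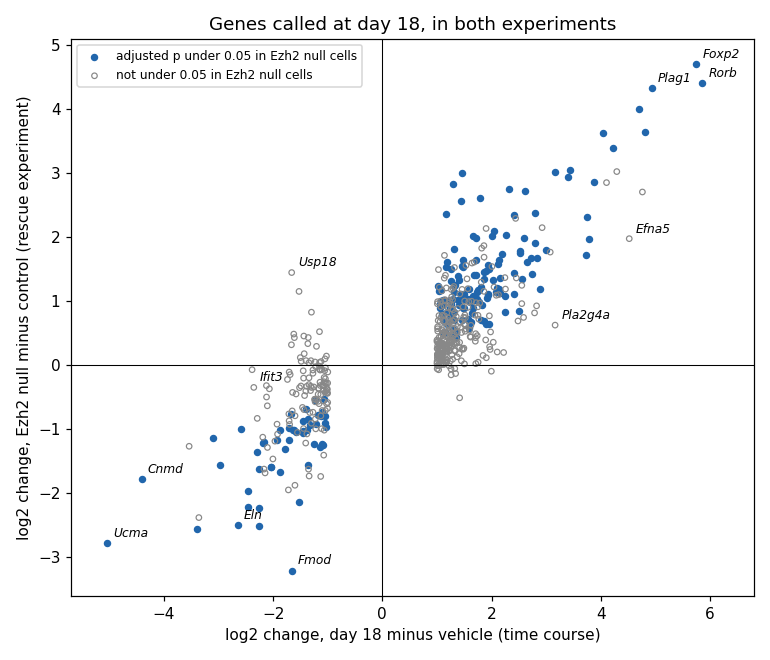
Log2 change at day 18 minus vehicle (horizontal axis) and in Ezh2 null minus control cells (vertical axis) for the 396 genes called higher and the 177 called lower at day 18, 1 point per gene, filled blue where the adjusted p in null cells is under 0.05. The gap around 0 on the horizontal axis is the 2-fold limit of the call. Most genes keep their side of 0, with Foxp2, Rorb and Plag1 at the upper right, and Usp18 lies left of 0 at day 18 and at 1.45 in null cells.

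Groups differed in how they appeared in null cells. Hoxb9 and Hoxb13 rose by 3.63 and 1.79 (adjusted p = 0.0147 and 0.000427), and Fmod, Ucma and Edil3 fell by 3.21, 2.77 and 2.56 (adjusted p = 0.00427, 0.0164 and 0.029). Of the 40 interferon effectors 2 rose and 0 fell in null cells, with a median of 0.24, against 1 and 27 with a median of −0.74 at day 18. Usp18 read 11.35 and 11.27 on the null arrays, against 10.04 and 9.67 on the control arrays, a difference that did not pass the test (adjusted p = 0.0646). Of the 52 DNA replication and 69 mitosis genes 0 rose and 0 fell in null cells, when 1.20% of all genes rose. Their medians were 0.08 and 0.15 there, and at day 18, 49 and 68 rose, with medians of 0.84 and 0.81. Mcm10 was at 0.28 and Mybl2 at 0.31 in null cells, neither past the test (adjusted p = 0.393 and 0.513). Pla2g4a and Unc5b were at 0.63 and 0.03 (adjusted p = 0.154 and 0.98). The differences between the 2 experiments were not tested.

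Called genes were spread over the genome. Among the autosomes and X the share called higher ran from 0.911% on chromosome 7 to 3.89% on chromosomes 10 and X. Among genes in chromosomal order 22 runs of neighbours, with 46 genes, were called higher and 13 runs, with 27 genes, were called lower, and no run held more than 3 genes. A run of 3 lower genes on chromosome 1 was Prelp, Fmod and Btg2, and a run of 3 higher genes on chromosome 5 was Cacna2d1, Hgf and Sema3c. Plag1 and its neighbour Chchd7 rose together on chromosome 4, and Dcn and Lum fell together on chromosome 10. Outside the genes with 1 symbol, 54 of 7223 further probe sets were called higher and 35 lower.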

How the data were processed

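RNA of clone C2 cells was hybridized to 18 Affymetrix Mouse Gene 1.1 ST arrays, 8 in the time course and 10 in the rescue experiment. The authors normalized the arrays by RMA (oligo package) and deposited log2 intensities, the 2 experiments separately, so levels are not compared between them. A batch correction by linear model is described for the rescue experiment, and whether the deposited values carry it is not known. No genome build applies to the arrays themselves. Of 28440 probe sets, 21217 had 1 gene symbol, 1881 had several and 5342 had none in the platform annotation. RefSeq tables (GRCm38.p6) matched 21184 of the symbols and gave positions and promoters. For 1386 genes with several probe sets only the probe set of highest mean was used, so 18820 genes were tested. The files held 0 columns of per-sample values from no sample here.

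Groups were taken from the sample titles. The 8 time course arrays entered 1 linear model (limma 3.58.1, R 4.3.3) with moderated variances and Benjamini-Hochberg adjustment over all genes, and the rescue experiment was fitted apart with the replicate number as a block. The authors' rank product test was not used here, and limma took its place. Their threshold, an adjusted p of 0.15, was tried as an alternative. Called genes had an adjusted p under 0.05 and changed at least 2-fold. Rose and fell are used of any gene with such a p, whatever its fold. The fit was tested on simulated data. The study calls its replicates biological. Whether they came from separate cultures of the clone is not given in the sources used here, so p-values measure the spread between these samples, which may be technical, and precision is limited by 2 arrays per group. Same-numbered arrays of the time course did not deviate together (correlation −0.07 to 0.05 over 6 pairs).

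The genes named are Ezh2, Ezh1, Cpa6, Cdkn2a and Cdkn1a, the 15 highest and 15 lowest called genes, up to 6 genes per list with the smallest adjusted p, and members of marker lists. Those given only as neighbours on a chromosome or as lying next to the fold limit were chosen after their values were seen. Predicted genes were counted but not named. The comparison and the gene lists were chosen with earlier results of these data known. Motifs were searched on both strands of the 250 bases before the start (first entry per gene). Other settings were centring each array on its median, quantile normalization, a filter that dropped the lowest 30% of genes, the mean of probe sets, trended and robust variance, only the day 18 and vehicle arrays, a replicate block, and leaving out each array.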

Additional observations from a re-analysis of the deposited data

Results flagged for a closer look

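Among the named genes, 5 were at least 2-fold from vehicle at both times and on opposite sides at day 5 and day 18, and differed in the direct test of day 18 against day 5 (limma, adjusted over all genes, n = 2 arrays per group). Elastin (Eln) was at −2.65 at day 18, against 1.08 at day 5, a difference of −3.73 (adjusted p = 2.37e-06). Ifit3 was at −2.36 and 1.09, a difference of −3.44 (adjusted p = 1.06e-06), and Usp18 at −1.66 and 1.39, a difference of −3.05 (adjusted p = 3.53e-08). Bst2 was at −1.35 and 1.59, a difference of −2.94 (adjusted p = 2.43e-08). Il1rn, which blocks the interleukin 1 receptor, went the other way, at 1.86 at day 18, against −1.72 at day 5, a difference of 3.58 (adjusted p = 1.21e-07).

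Only named genes called at day 18 were searched here. In 4 of them the Ezh2 null arrays lay apart from the control arrays, on the other side than day 18 from vehicle. The share of all genes that did so was not counted, and the difference between the experiments was not tested. Such separation is common with 2 arrays per group: in 11621 of all 18820 genes the day 18 and vehicle arrays did not overlap. Usp18 was at 1.45 in Ezh2 null cells, Xaf1, which promotes apoptosis, at 0.49, and Irgm1 at 0.30, and at day 18 they were at −1.66, −1.62 and −1.21. Cxcl5 was at −0.13 in Ezh2 null cells and at 1.34 at day 18. None of the 4 changes in null cells passed the test (adjusted p = 0.0646, 0.321, 0.388 and 0.641). Groups of 2 arrays allow no check for single outlying arrays.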

How the results depend on the processing

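Leaving out each time course array in turn gave 363 to 462 genes higher and 161 to 205 lower at day 18 against vehicle, 491 to 504 and 372 to 400 against day 5, and 11 to 19 and 28 to 41 at day 32 against day 18. Ezh2 null cells depended more on single arrays, with 99 to 193 genes higher and 24 to 117 lower. Ezh2 pre-rescue cells, with 0 genes called either way (1928 at an unadjusted p under 0.05 with limma), gave 0 to 114 higher and 0 to 25 lower, the highest counts without control replicate 2. Centring the arrays gave 65 genes lower in Ezh2 null cells, in place of 40, and 2 higher in Ezh2 pre-rescue cells. The cause was not tested. A replicate block gave the 396 and 177 calls at day 18 again. Without the block, Ezh2 null cells had 141 genes higher and 49 lower. Same-numbered rescue arrays correlated in their deviations at −0.43 to 0.54 over 10 pairs. Quantile normalization gave 344 and 195 calls at day 18, the low filter 389 and 174, and the mean of probe sets 381 and 173. Of 335 named genes (323 under the low filter), between 0 and 26 lost their call under a single setting, most without day 18 replicate 2, and 0 changed direction. Centring gained 1, Cdkn2a. With 2 arrays per group, differences near the replicate spread could not be detected.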

Other observations

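Further lists held single members that changed, while several counts lay near the shares of all genes, of which 15.2% rose and 10.5% fell. Of 51 matrix proteases and their inhibitors 14 rose and 10 fell (13 and 20 centred). Adamts1, which cleaves proteoglycans, read 9.87 and 9.98 at day 18, against 8.58 and 8.81 in vehicle cells, and Fap, a peptidase of activated fibroblasts, read 5.66 and 5.38 at day 18, against 4.47 and 4.06 in vehicle cells. Mmp2, a gelatinase, was lower, at 10.85 and 10.74 at day 18, against 11.75 and 11.82 in vehicle cells. Of 25 glypican, syndecan and heparan sulfate genes 6 rose and 4 fell (3 and 8 centred), and beside Gpc3 the matrix proteoglycan Agrn was lower, at 7.35 and 7.29 at day 18, against 8.86 and 9.03 in vehicle cells. Of 37 phosphodiesterase, adenylyl cyclase and RGS genes 7 rose (18.9%) and 3 fell (8.11%; 6 and 14 centred), with Pde10a, which breaks down cyclic nucleotides, at 6.20 and 6.29 at day 18, against 4.78 and 4.48 in vehicle cells.

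Of 21 receptor kinase genes 3 rose (14.3%) and 4 fell (2 and 8 centred). Mertk and Axl, receptors in the uptake of dying cells, fell by 1.14 and 0.75. Of 41 glycolysis and hypoxia genes 6 rose (14.6%) and 9 fell (4 and 17 centred), and the isoforms of glycolysis were divided, with the hexokinase Hk1 at 8.23 and 8.21 at day 18, against 8.85 and 9.16 in vehicle cells, and the phosphofructokinase Pfkp at 7.77 and 7.85 at day 18, against 6.95 and 7.05 in vehicle cells. Of 35 germline genes 2 fell (5.71%) and none rose (limma), while centred 10 fell.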
